A study of Arabidopsis thaliana with 12 samples.

Results

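The lincomycin response of wild-type Col-0 seedlings was measured on 6 Affymetrix arrays, 3 from seedlings raised on 0.5 mM lincomycin and 3 from seedlings raised without it. These arrays belong to a set of 12 that also holds 3 lincomycin and 3 control arrays of gun1-101, a mutant of the plastid pentatricopeptide repeat protein GUN1. All seedlings were 7 days old: after 2 days of stratification and 8 h of light to promote germination, they stood 5 days in darkness and 2 days in continuous light on plates of half-strength medium, so controls and treated seedlings share this dark-to-light passage. The agent was present from sowing, whole seedlings were extracted, and the labels describe the 3 arrays of each group as biological replicates. The response was described across 16550 genes, 1 probe set per gene, out of 38408 probe sets in the table. Of these genes, 1804 carry a symbol in the gene tables used and 14746 carry a locus tag only. For a locus tag that the tables leave unnamed, no function is given below beyond its place in a gene list. A place entered by locus is not a role that the tables give.

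Lincomycin blocks protein synthesis on the bacterial-type ribosomes of the plastid. Chloroplasts need proteins from 2 genomes: a small plastid genome and the nucleus, which encodes most photosynthetic subunits, the enzymes of chlorophyll synthesis and the plastid's own ribosomal proteins. When plastid translation is blocked during seedling development, signals from the plastid lower the transcription of many nuclear photosynthesis genes, a process known as retrograde signalling, in which GUN1 takes part. The comparison of lincomycin with control arrays in Col-0 asks which transcripts differ when this block acts in the wild type.

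Values are deposited log2 expression levels, so a difference of 1 is a 2-fold change. The 6 Col-0 arrays had medians of 6.61 to 6.70 over these genes, and no 2 arrays held identical values. One array of each Col-0 group stood apart from the others. Col-0 lincomycin replicate 3 had a mean correlation of 0.9855 with its group, against 0.9887 and 0.9896 for replicates 1 and 2. Col-0 control replicate 1 had 0.9786, against 0.9845 and 0.9851 for replicates 2 and 3. Both lay on the side of the other group: of the genes called higher, lincomycin replicate 3 was the lowest lincomycin array for 57.7% (41.3% of all genes) and control replicate 1 the highest control array for 55.0% (41.2% of all genes). Where leaving out both moved the difference of a called gene named here by over 1.5 times, both values are given.

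Lincomycin changed 2374 of the 16550 genes in Col-0 (14.3%), with 1184 called higher (7.15%) and 1190 called lower (7.19%) at a limma adjusted p under 0.05. This fit pools the spread of the Col-0 and gun1-101 arrays. Mean correlations with the group were 0.9786 to 0.9896 in Col-0 and 0.9888 to 0.9914 in gun1-101. The fit to the 6 Col-0 arrays alone called 1067 genes, 441 higher and 626 lower. How far this lower count follows from having fewer arrays was not tested. In the pooled fit the directions were even in number but not in size. At a change of 8-fold or more, 8 genes were higher and 40 lower. Between 4- and 8-fold the counts were 20 higher and 63 lower, and between 2- and 4-fold 223 higher and 382 lower. Genes that fell had been strongly expressed: their median level was 7.26 in lincomycin and 8.38 in control seedlings, against 6.69 and 6.64 over all tested genes. Genes that rose had medians of 8.27 in lincomycin and 7.42 in control seedlings. On whole-seedling RNA, fewer cells of a type and less RNA per cell cannot be told apart. Without control replicate 1 the fit called 3377 genes (1839 higher, 1538 lower), and without control replicate 1 and lincomycin replicate 3 together it called 4787 (2526 higher, 2261 lower). Leaving out a well-correlated array lowered the count: 1463 genes were called without control replicate 2, 1656 without control replicate 3, 1512 without lincomycin replicate 1 and 1356 without lincomycin replicate 2. When each array was shifted to the same median, 940 genes were higher and 1329 lower.

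**Figure D1:**
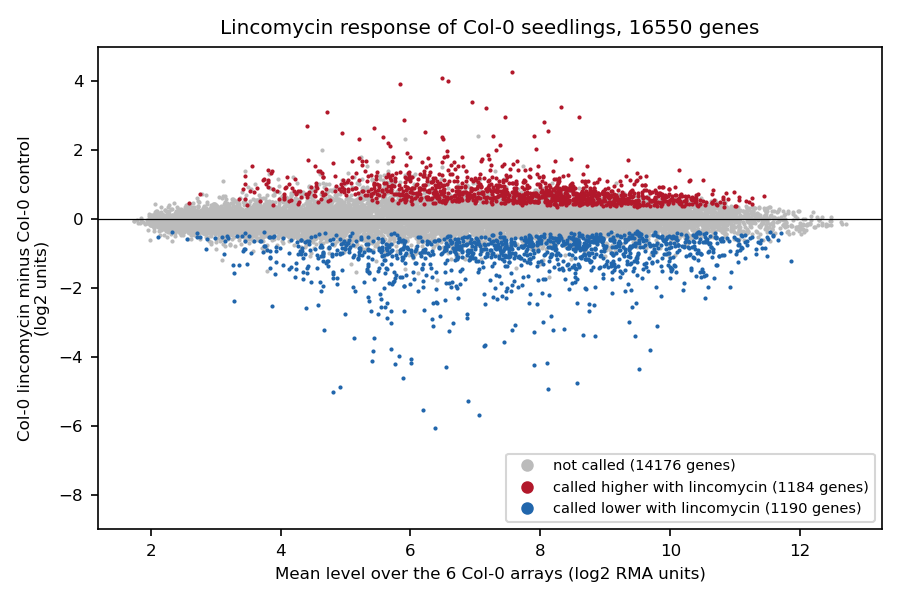
Each point is 1 of 16550 genes, with its mean level over the 6 Col-0 arrays on the horizontal axis (log2 units) and the lincomycin minus control difference on the vertical axis (log2 units). Red points are the 1184 genes called higher and blue points the 1190 called lower. The blue points reach -6.06, while the red ones end at 4.29.

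Calls were spread over the nuclear genome, and from 13.8% of the genes of chromosome 2 to 15.5% of those of chromosome 1 were called. Of the genes with a locus tag only, 1061 were higher and 1009 lower. Of those with a symbol, 123 were higher and 181 lower. Few organelle genes were called. Of 63 plastid-encoded genes 4 fell and 0 rose (0 at an unadjusted p under 0.05), and of 18 mitochondrion-encoded genes 0 were called by limma, with 0 at an unadjusted p under 0.05 (4 were higher without control replicate 1, and 8 without this array and lincomycin replicate 3).

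Most of the genes with the largest changes carry a locus tag only, 12 of the 15 that fell most and all 15 that rose most. Every one of these 30 was chosen among called genes whose Col-0 groups did not overlap, so the lack of overlap is no finding. Of the tested genes AT1G13609 fell most, with 3.21, 3.41 and 3.44 log2 units in the lincomycin arrays and 8.46, 10.06 and 9.72 in the control arrays. The difference was -6.06 (SE 0.40, adjusted p = 1.79e-06), a 66.8-fold decrease. The 3 lincomycin arrays lie together near the low end of the scale (10% of genes had a mean level of 3.05 or less), while the control arrays spread over more than 1 unit with replicate 1 lowest.

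AT2G34620, entered by locus in the list of plastid transcription and RNA genes, had 4.16, 3.49 and 5.02 in lincomycin and 9.42, 10.22 and 10.06 in control arrays. AT2G14247 had 3.16, 3.81 and 3.33 in lincomycin and 8.17, 9.42 and 9.29 in control arrays (difference -5.53, SE 0.31, adjusted p = 5.73e-07). AT2G25510 had 3.85, 3.88 and 4.98 in lincomycin and 8.94, 9.91 and 9.73 in control arrays (difference -5.29, SE 0.30, adjusted p = 5.77e-07). In AT2G34620 and AT2G25510 lincomycin replicate 3 is the highest of its group, and in all 3 genes control replicate 1 is the lowest of its group.

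AT1G21500 was the most evenly measured of the strongest falls. It stood at 5.71, 5.33 and 5.90 in lincomycin and 10.27, 10.76 and 10.75 in control arrays, a difference of -4.94 (SE 0.17, adjusted p = 4.61e-08). AT1G13650 had 2.57, 2.46 and 2.39 in lincomycin and 7.23, 7.77 and 7.04 in control arrays, with a difference of -4.87 (SE 0.21). AT5G48490 was measured less evenly, with 5.36, 5.95 and 7.24 in lincomycin and 10.11, 11.29 and 11.40 in control arrays (difference -4.75, SE 0.44). Further falls of this set were -5.03 (SE 0.45) for AT4G22513, -4.62 (SE 0.29) for AT1G10657 and -4.21 (SE 0.52) for AT1G66100. Its other members, LHB1B2, NdhU, CSLA01, AT1G47400 and AT1G47395, are described with their gene groups.

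AT1G17960 rose most. It had 9.73, 9.57 and 9.82 in lincomycin and 4.98, 5.63 and 5.64 in control arrays, a difference of 4.29 (SE 0.29, adjusted p = 2.07e-06) or 19.5-fold. AT5G03495 had 8.72, 8.58 and 8.29 in lincomycin and 5.38, 4.00 and 3.90 in control arrays (difference 4.099, SE 0.35). AT4G22960 had 8.51, 8.65 and 8.58 in lincomycin and 4.92, 4.34 and 4.47 in control arrays (difference 4.00, SE 0.17, adjusted p = 6.17e-08). The lincomycin arrays of AT4G22960 lie within 0.15 units, and its controls are more scattered. AT4G05380 rose by 3.93 (SE 0.19), with 7.54, 7.87 and 8.01 in lincomycin and 4.22, 3.87 and 3.55 in control arrays. AT3G54520 had 6.34, 6.16 and 6.31 in lincomycin and 3.03, 3.23 and 3.18 in control arrays, so both groups were tight (difference 3.12, SE 0.18).

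Control replicate 1 stood out in 3 of the genes that rose most. AT2G04050 had 9.91, 9.94 and 10.03 in lincomycin and 8.12, 5.79 and 6.16 in control arrays. AT3G17520 had 9.13, 8.74 and 8.43 in lincomycin and 6.99, 4.74 and 4.92 in control arrays. AT2G21640 had 9.44, 9.49 and 9.48 in lincomycin and 8.14, 5.56 and 6.22 in control arrays. In each of them control replicate 1 lies about 2 units above the other controls and still below every lincomycin array. Their differences were 3.27 (SE 0.48), 3.22 (SE 0.50) and 2.83 (SE 0.47) over all arrays, and 3.99, 3.94 and 3.58 without control replicate 1. The other genes of this set rose by between 2.56 for AT5G60250 (SE 0.19) and 3.39 for AT5G53230 (SE 0.34), and AT2G18193 (2.96), AT1G16850 (2.96), AT3G28570 (2.88), AT1G30170 (2.69) and AT1G30160 (2.65) lay between them.

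**Figure D2:**
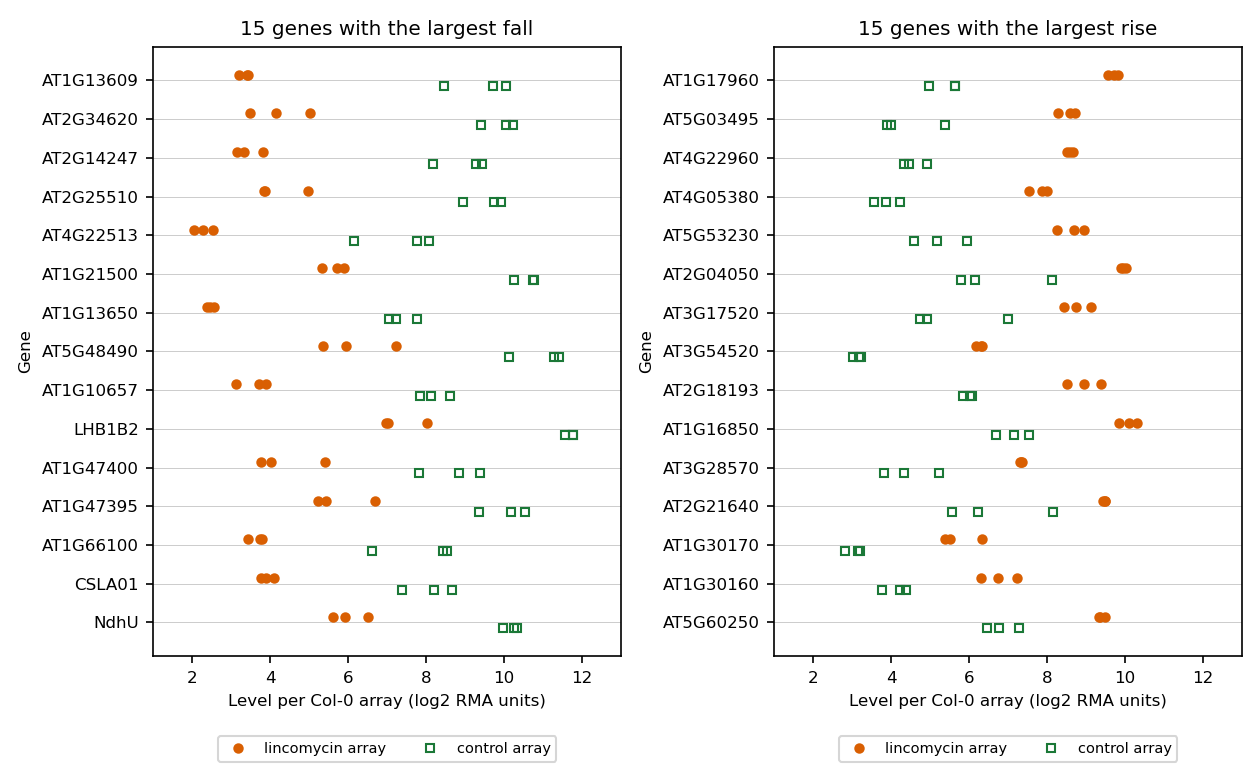
Levels of the 15 genes that fell most (left) and the 15 that rose most (right) in each Col-0 array (horizontal axis, log2 units). Filled circles are lincomycin arrays and open squares control arrays, 3 of each per gene. The groups do not overlap, by the choice of these genes, and the controls of AT2G04050, AT3G17520 and AT2G21640 have 1 array far above the other 2.

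The genes of light capture fell together. Light-harvesting proteins bind chlorophyll around the photosystems, and all 4 measured antenna genes were lower, with a median difference of -2.72 against 0.02 over all tested genes. Of all genes 7.19% were called lower. The gene lists were written with earlier results of these data known, so counts in this and the other lists may follow in part from that choice. A measured gene of a list is a tested gene matched to it, so a list need not hold a whole pathway. LHB1B2 (LHCB1.5, AT2G34420), a protein of the main antenna of photosystem II, had 7.02, 6.97 and 8.02 in lincomycin and 11.56, 11.77 and 11.76 in control arrays (difference -4.36, SE 0.25). LHCB4.2 (AT3G08940) had 7.46, 7.59 and 8.31 in lincomycin and 11.32, 11.68 and 11.78 in control arrays (difference -3.81, SE 0.22, adjusted p = 6.83e-07). For both, replicate 3 is the highest lincomycin array by more than 0.7 units, and the groups stay more than 3 units apart. The 3 LHCB4 genes encode the minor antenna protein CP29, and they fell by unequal amounts: LHCB4.1 (AT5G01530) had 8.47, 8.64 and 8.93 in lincomycin and 10.28, 10.24 and 10.41 in control arrays, and LHCB4.3 (AT2G40100) had 5.39, 4.98 and 5.00 in lincomycin and 6.75, 6.78 and 6.66 in control arrays. Their differences were -1.63 (SE 0.13) and -1.61 (SE 0.14). Probe sets of such similar genes can share sequence, which was not examined.

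All 6 measured photosystem genes fell (median -1.38). PSAE-1, a stromal subunit of photosystem I, had 7.77, 8.00 and 8.98 in lincomycin and 11.23, 11.30 and 11.48 in control arrays (difference -3.09, SE 0.24, adjusted p = 7.41e-06). PSAN, a lumenal subunit of photosystem I, had 10.15, 10.29 and 10.84 in lincomycin and 11.55, 11.66 and 11.76 in control arrays (difference -1.23, SE 0.16). The photosystem II genes PSBY (-1.75, SE 0.19) and PSBW (-1.21, SE 0.17) fell too, as did PSB27 (-1.54, SE 0.19), which acts in photosystem II assembly and repair. LPA19, another assembly factor of photosystem II, fell least (-0.50, SE 0.14), and its call ended without any array but control replicate 1 (adjusted p = 0.0564 to 0.111).

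Beyond the photosystems, 6 of 8 genes of electron transport and ATP synthase fell (median -1.28). NdhU, NdhN and NdhL encode subunits of the NDH complex, which passes electrons back into the thylakoid chain around photosystem I. NdhU (AT5G21430) had 5.61, 5.93 and 6.52 in lincomycin and 9.97, 10.34 and 10.25 in control arrays (difference -4.16, SE 0.20). NdhN (-1.70, SE 0.18) and NdhL (-1.32, SE 0.12) fell less far. The NDH assembly factor genes CRR42 (-1.24, SE 0.28) and CRR41 (-0.69, SE 0.17) were lower too, while CRR21 and CRR22, which encode pentatricopeptide repeat proteins, stood at -0.26 and 0.22 and were not called. Without control replicate 2, CRR42 and CRR41 were not called (adjusted p = 0.0525 and 0.0746), nor was CRR41 without control replicate 3 (adjusted p = 0.0538). ATPC1, the gamma subunit of the chloroplast ATP synthase, had 9.08, 9.31 and 9.47 in lincomycin and 11.22, 11.10 and 11.10 in control arrays (difference -1.85, SE 0.12, adjusted p = 1.67e-06). Of 5 thylakoid genes 4 fell (median -1.0), among them TROL (-1.003, SE 0.12), which tethers ferredoxin-NADP reductase to the membrane, and TAAC (-0.79, SE 0.16), an ATP carrier of the thylakoid. The loci AT1G52220 (-1.98, SE 0.16) and AT4G01150 (-1.12, SE 0.21) were the others.

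Transcripts of carbon fixation genes were lower as well. All 4 measured Calvin cycle genes fell (median -2.08). PRK (AT1G32060), the phosphoribulokinase that regenerates the substrate of Rubisco, had 6.32, 7.20 and 6.73 in lincomycin and 9.98, 9.31 and 9.43 in control arrays (difference -2.82, SE 0.22, adjusted p = 8.26e-06). AT1G56190, entered by locus, had 7.27, 7.48 and 7.27 in lincomycin and 9.78, 9.79 and 9.78 in control arrays (difference -2.44, SE 0.12, adjusted p = 1.41e-07). SBPASE (AT3G55800), sedoheptulose bisphosphatase, had 9.87, 9.86 and 9.74 in lincomycin and 11.56, 11.52 and 11.53 in control arrays (difference -1.71, SE 0.11). RCA, Rubisco activase, remained strongly expressed, with 10.68, 10.90 and 11.04 in lincomycin and 11.77, 11.76 and 11.73 in control arrays (difference -0.88, SE 0.12). Lincomycin replicate 3 was not the lincomycin array nearest to the controls in PRK, AT1G56190 and SBPASE.

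Photorespiration recycles the product of Rubisco's oxygenase reaction, and 3 of its 5 measured genes fell (median -0.85). HPR, the peroxisomal hydroxypyruvate reductase, fell by 0.85 (SE 0.12), and the loci AT1G32470 and AT1G11860 by 1.50 (SE 0.13) and 1.11 (SE 0.12). Of the starch and sugar genes, ATSPS4F, a sucrose phosphate synthase, had 7.16, 7.13 and 6.64 in lincomycin and 10.68, 10.21 and 10.15 in control arrays (difference -3.37, SE 0.18, adjusted p = 3.42e-07). The list as a whole did not move one way, with 3 of 21 genes higher, 2 lower and a median of 0.03. The sugar transporters SWEET4 (1.68, SE 0.29) and SWEET3 (1.41, SE 0.19) rose. APL3, a large subunit of the enzyme that makes the starch precursor ADP-glucose, rose by 1.24 (SE 0.29, adjusted p = 0.0139). Its call ended without control replicate 2 or 3 or lincomycin replicate 1 or 2 (differences 0.98 to 1.17, adjusted p = 0.0548 to 0.0568).

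Transcripts for several steps of chlorophyll synthesis were lower. Of 7 tetrapyrrole genes 6 fell, with a median of -1.01. PORB (AT4G27440), the light-dependent enzyme that converts protochlorophyllide to chlorophyllide, had 7.86, 7.47 and 7.96 in lincomycin and 11.09, 11.21 and 11.18 in control arrays (difference -3.40, SE 0.15). Earlier in the pathway, HEME1 and HEME2, uroporphyrinogen decarboxylases, fell by 1.72 (SE 0.13) and 1.44 (SE 0.17), and GSA1, which makes the precursor 5-aminolevulinic acid, fell by 1.02 (SE 0.14). CHLM, the magnesium protoporphyrin methyltransferase, fell by 0.81 (SE 0.14), and SIRB of the siroheme branch by 0.80 (SE 0.18). The call of SIRB ended without control replicate 2 or lincomycin replicate 1 or 2 (adjusted p = 0.0539 to 0.057). HEMA2, for a reductase at the start of the pathway, was not called (0.11). Z-ISO, which isomerises a precursor of the carotenoids, was the only tested gene matched to the carotenoid list and fell by 1.05 (SE 0.19).

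The plastid's own machinery was lower by smaller amounts. Of 6 nuclear genes for plastid ribosomal proteins and translation, all entered by locus, 5 fell (median -0.92). The largest falls were those of AT5G47190 (-1.38, SE 0.28) and AT1G29070 (-1.11, SE 0.13). AT2G43030 fell by 0.96 (SE 0.17). AT5G65220 had 8.41, 8.68 and 9.50 in lincomycin and 9.20, 9.98 and 10.03 in control arrays, so its groups overlap. Its difference was -0.87 (SE 0.27, adjusted p = 0.0476), -1.46 without control replicate 1 and lincomycin replicate 3, and not called without any 1 of the other 4 arrays (adjusted p = 0.156 to 0.18). The list count was 6 without control replicate 1 and 3 without any 1 of control replicates 2 and 3 and lincomycin replicates 1 and 2. In plastid transcription and RNA 2 of 5 fell: AT2G34620, described above, and AT2G37220 (-0.47, SE 0.12, adjusted p = 0.0215), whose call ended without control replicate 3 or lincomycin replicate 1 or 2 (adjusted p = 0.0548 to 0.0876). CLPP4, a subunit of the stromal Clp protease, fell by 0.69 (SE 0.15) as 1 of 3 genes of import and proteolysis (2 fell without control replicate 1 or lincomycin replicate 3). Of 3 pentatricopeptide repeat genes of the list 0 were called by limma and 0 had an unadjusted p under 0.05 (the largest difference was -0.24, for AT1G62590).

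Of 41 plastid-encoded photosynthesis genes 4 fell (9.76%, beside 7.19% of all genes), and the list median was -0.22. The difference was below 0 in 39 of the 41. Their median level was 11.9 in lincomycin and 12.1 in control arrays of Col-0. Over all 12 arrays, 90% of genes had a mean level of 9.72 or less. ndhJ, an NDH subunit, had 10.57, 10.91 and 10.60 in lincomycin and 11.85, 11.34 and 11.39 in control arrays (difference -0.83, SE 0.16, adjusted p = 0.00525). The photosystem genes psbL (-0.66, adjusted p = 0.0156), psaJ (-0.58, adjusted p = 0.0407) and psbM (-0.57, adjusted p = 0.0267) were the others. These 3 calls were fragile: psbL was not called without lincomycin replicate 1 (adjusted p = 0.0669), psaJ without any 1 of the 6 arrays (adjusted p = 0.0508 to 0.144) and psbM without control replicate 1 or 2 or lincomycin replicate 1 or 3 (adjusted p = 0.0601 to 0.0728). Without both arrays that stand apart psbM stood at -0.35 (adjusted p = 0.106). The other 22 plastid-encoded genes are those whose names the photosynthesis list did not match. Of these 22 genes 0 were called by limma, and 3 had an unadjusted p under 0.05, all with negative differences. The differences of the 22 ranged from -0.40 to 0.09, with 18 below 0.

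**Figure D3:**
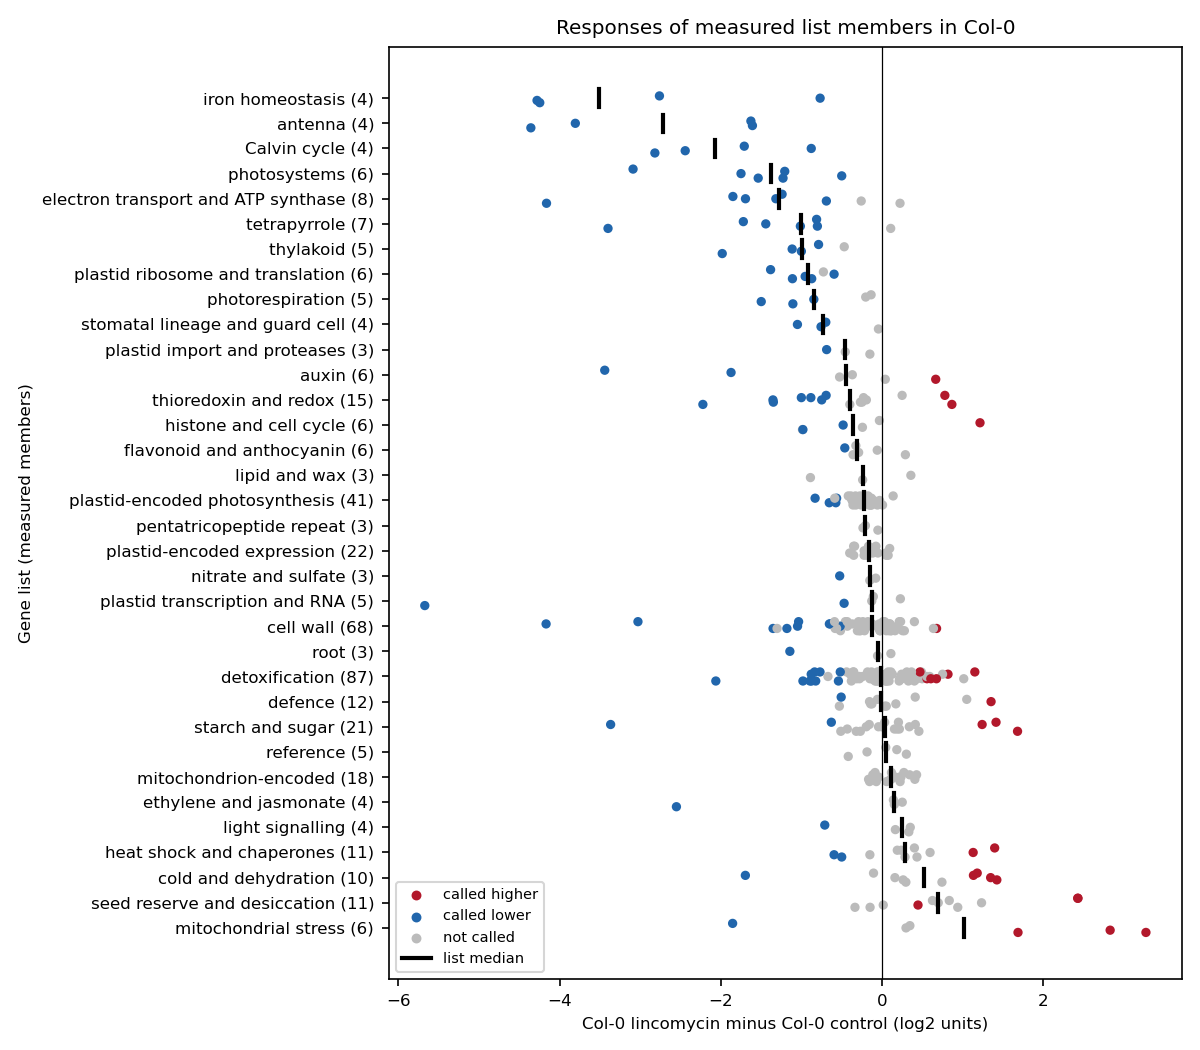
Difference of lincomycin minus control in Col-0 (horizontal axis, log2 units) for each measured member of the 34 gene lists with at least 3 measured members. Blue points were called lower, red points higher and grey points neither, and black bars are list medians. Iron, antenna, Calvin cycle and photosystem genes lie left of 0, and the mitochondrial stress and seed lists have medians of 1.01 and 0.70.

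Several redox genes of the chloroplast fell. Of 15 genes in the thioredoxin and redox list 7 fell and 2 rose (median -0.40). TAPX, the ascorbate peroxidase of the thylakoid, had 8.77, 8.50 and 8.95 in lincomycin and 10.76, 11.03 and 11.09 in control arrays (difference -2.22, SE 0.15, adjusted p = 2.13e-06). TRXF2, a thioredoxin that activates Calvin cycle enzymes, fell by 1.36 (SE 0.23) and the chloroplast glutaredoxin gene GrxC5 by 1.35 (SE 0.28). AT3G11630, entered by locus, fell by 1.003 (SE 0.17). The genes that rose were CCS (0.86, SE 0.12), the copper chaperone of superoxide dismutases, and the glutaredoxin gene GRXC1 (0.78, SE 0.13). The list had 12 falls without control replicate 1 and lincomycin replicate 3 (median -0.84).

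The iron list stood lowest of all lists, with 4 of 4 genes down (beside 7.19% of all genes) and a median of -3.51. Its members were chosen with earlier results of these data known, and AT1G47400 and AT1G47395 are also among the 15 genes that fell most. The rank of the list may follow in part from that choice. Plants short of iron switch on a set of basic helix-loop-helix regulators and small peptides. BHLH101 (AT5G04150), one of these regulators, had 4.29, 3.94 and 4.11 in lincomycin and 5.91, 7.37 and 7.35 in control arrays (difference -2.76, SE 0.35, adjusted p = 0.000339). The neighbouring loci AT1G47400 and AT1G47395, entered by locus, had 4.03, 3.78 and 5.42 in lincomycin and 7.83, 9.39 and 8.84 in control arrays, and 5.23, 5.44 and 6.68 in lincomycin and 9.37, 10.54 and 10.18 in control arrays. They fell by 4.28 (SE 0.41) and 4.25 (SE 0.41), and as adjacent and possibly similar genes they may share probe signal. PYE, a regulator of iron homeostasis, fell by 0.77 (SE 0.15). In these genes, except PYE, control replicate 1 was the lowest control.

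Mitochondrial stress genes moved in both directions. The list of genes that respond to disturbed mitochondria had 3 of 6 members higher and 1 lower, with a median of 1.01. The members that rose were AT2G04050, AT2G21640 and AT5G51440, all entered by locus. The first pair is described above, and AT5G51440 had 8.12, 8.28 and 9.06 in lincomycin and 6.39, 7.00 and 7.01 in control arrays (difference 1.68, SE 0.34). AT5G09570 went the other way, with 5.60, 5.38 and 5.88 in lincomycin and 7.74, 7.45 and 7.24 in control arrays (difference -1.86, SE 0.29, adjusted p = 0.00131). NDB2, an alternative NADH dehydrogenase of mitochondria, stood at 0.34 and was not called, with 4 members higher without control replicate 1.

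Of 11 heat shock and chaperone genes 2 were higher (18.2%, beside 7.15% of all genes) and 2 lower (18.2%, beside 7.19%), and these calls were weak. ATHSP22.0, which encodes a small heat shock protein, was higher by 1.13 (SE 0.27, adjusted p = 0.0145) and AT5G37670, entered by locus, by 1.40 (SE 0.40, adjusted p = 0.0373). The chaperonin genes Cpn60beta4 (-0.60, adjusted p = 0.0198) and Cpn60beta2 (-0.50, adjusted p = 0.0293), which encode plastid folding machinery, fell. Each of these 4 calls ended without at least 2 of the 6 arrays in turn: without control replicate 2 or 3 or lincomycin replicate 2 for ATHSP22.0 (adjusted p = 0.0519 to 0.0646), without control replicate 1 or 3 or lincomycin replicate 2 or 3 for AT5G37670 (0.0693 to 0.124), without lincomycin replicate 1 or 2 for Cpn60beta4 (0.0527 and 0.059), and without any array but control replicate 1 for Cpn60beta2 (0.0531 to 0.0984).

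Seed and dehydration genes were higher in part. Of 11 seed reserve and desiccation genes 3 rose (27.3%, beside 7.15% of all genes) and 0 fell, with 0 falls at an unadjusted p under 0.05. The median was 0.70, and 1 fell without control replicate 1. The count higher was 2 without lincomycin replicate 1 or 2 and 4 without control replicate 2. PAP85, a vicilin-like seed storage protein, had 8.62, 8.81 and 8.00 in lincomycin and 6.12, 5.18 and 6.86 in control arrays (difference 2.42, SE 0.34, adjusted p = 0.000634). The late embryogenesis abundant gene M17 had 9.76, 9.51 and 8.08 in lincomycin and 7.94, 5.45 and 6.67 in control arrays (difference 2.43, SE 0.53, adjusted p = 0.00993). In M17 lincomycin replicate 3 and control replicate 1 lie within 0.15 units of each other, and the difference was 3.57 without both. The limma fit to the 6 Col-0 arrays alone did not call M17 (adjusted p = 0.0695). AT1G54410 was called at 0.44 (SE 0.13, adjusted p = 0.0388), and not without any array but control replicate 2 (adjusted p = 0.0683 to 0.102). Of 10 cold and dehydration genes 4 rose (40.0%, beside 7.15% of all genes) and 1 fell. The count higher was 3 without control replicate 1 or 2 or lincomycin replicate 1 or 3. Those that rose were DI21 (1.42, SE 0.24), KIN1 (1.35, SE 0.26), COR27 (1.18, SE 0.22) and KIN2 (1.13, SE 0.32). COR15B, a chloroplast-targeted cold protein, fell by 1.70 (SE 0.35). KIN1 and KIN2 are close relatives and their probe sets may share signal. KIN2 (adjusted p = 0.0339) was not called without control replicate 1 or 2 or lincomycin replicate 1 or 3 (adjusted p = 0.0703 to 0.101), and its difference was 0.55 without both arrays that stand apart.

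Growth and cell wall genes fell in a minority. Of 68 cell wall genes 9 were lower (13.2%, beside 7.19% of all genes) and 1 higher (1.47%). Leaving out 1 array gave 6 lower (without lincomycin replicate 2) to 13 lower (without control replicate 1), and the count higher was 0 without control replicate 2 and 2 without lincomycin replicate 3. The fit to the 6 Col-0 arrays alone called 4 lower, and 14 were lower without both arrays that stand apart. CSLA01 (AT4G16590), a cellulose synthase-like protein of the mannan-making family, had 3.76, 3.91 and 4.102 in lincomycin and 8.67, 7.39 and 8.21 in control arrays (difference -4.17, SE 0.27). TBL26, of a family of wall polymer acetyltransferases, had 5.18, 4.85 and 5.38 in lincomycin and 8.57, 8.21 and 7.71 in control arrays (difference -3.03, SE 0.24, adjusted p = 7.86e-06). In both, control replicate 1 is the highest control and lincomycin replicate 3 the highest lincomycin array. Without these arrays the differences were -3.97 for CSLA01 and -2.95 for TBL26. The wall-loosening genes EXPB1 (-1.35, SE 0.17) and XTH20 (-1.18, SE 0.26) fell as well.

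Hormone genes gave single large changes. Enzymes of the GH3 family attach amino acids to hormones such as auxin, and 2 of the 6 genes of the auxin list fell while 1 rose. GH3.9 (AT2G47750) had 3.83, 3.49 and 3.83 in lincomycin and 7.58, 6.78 and 7.11 in control arrays (difference -3.44, SE 0.22, adjusted p = 1.17e-06). GH3.3 fell by 1.87 (SE 0.30), and GH3.17 rose by 0.66 (SE 0.11). JMT, which methylates jasmonate, had 4.60, 4.14 and 4.09 in lincomycin and 6.71, 6.99 and 6.79 in control arrays, a difference of -2.55 (SE 0.22, adjusted p = 1.62e-05), and was the 1 gene of 4 called in its list.

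Detoxification enzymes, the largest list, moved in both directions, with 6 of 87 higher (6.90%) and 10 lower (11.5%), beside 7.15% and 7.19% of all genes. The count higher was 3 without lincomycin replicate 2, and the count lower 6 without control replicate 2, while the fit to the 6 Col-0 arrays alone called 3 higher and 4 lower. GSTU20, a glutathione transferase, had 8.98, 8.66 and 9.86 in lincomycin and 10.68, 11.62 and 11.39 in control arrays and fell by 2.06 (SE 0.29). The glycosyltransferase gene UGT72E1 fell by 0.90 (SE 0.17). UGT73C6 (-0.98, adjusted p = 0.0141) lost its call without control replicate 2 or lincomycin replicate 1 (0.0631 and 0.0607), and the cytochrome P450 gene CYP71B19 (1.15, adjusted p = 0.0271) without control replicate 3 or lincomycin replicate 2 or 3 (0.0724 to 0.103). The chitinase gene CHI rose by 1.35 (SE 0.20) as 1 of 12 defence genes, of which PR-1-LIKE (-0.51, adjusted p = 0.0189) was called lower and not without control replicate 2 or lincomycin replicate 1 or 2 (0.0687 to 0.0792). SIR, sulfite reductase, fell by 0.53 (SE 0.11) as 1 of 3 nitrate and sulfate genes.

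The flavonoid and light signalling lists had 1 call each, and both depended on single arrays. DFR, of anthocyanin synthesis, had a difference of -0.46 (adjusted p = 0.0369), and its call ended without control replicate 2 or 3 or lincomycin replicate 1 or 2 (adjusted p = 0.0589 to 0.155). The flavonoid list had 3 genes lower without lincomycin replicate 3 and 4 without both arrays that stand apart. The phytochrome-interacting factor gene PIF7 stood at -0.71 (adjusted p = 0.0344), and its call ended without any array but lincomycin replicate 3 (adjusted p = 0.0548 to 0.131). Of the lipid and glucosinolate lists 0 of 3 and 0 of 2 genes were called by limma, and 1 and 2 had an unadjusted p under 0.05. The largest differences there were -0.89 for AT5G61590 (adjusted p = 0.335, but 0.0316 and -1.58 without control replicate 1) and -0.56 for the glucosinolate transporter gene GTR1 (adjusted p = 0.0832). The other transporter, GTR2, stood at 0.33 (adjusted p = 0.081, but 0.0481 without lincomycin replicate 3).

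Markers of cell types that a seedling holds did not all stay level. TRY (AT5G53200), a repressor of trichome fate, had 5.15, 4.88 and 4.63 in lincomycin and 7.61, 8.29 and 7.48 in control arrays (difference -2.91, SE 0.32, adjusted p = 9.98e-05). Of 4 stomatal lineage genes 3 fell (median -0.73): STOMAGEN, a peptide from the mesophyll that promotes stomata, by 1.05 (SE 0.25, adjusted p = 0.0157), and the transcription factor genes FMA and SPCH by 0.76 (adjusted p = 0.0194) and 0.70 (adjusted p = 0.0268). MUTE, of the same lineage, stood at -0.05. The stomatal count was 0 without control replicate 2 and 1 without control replicate 3 or lincomycin replicate 1 or 2, and FMA was not called without lincomycin replicate 3 (adjusted p = 0.0545). Of 3 root genes AT4G28100, entered by locus, fell by 1.15 (SE 0.14; 2 of the 3 fell without control replicate 1), and the root hair expansins EXPA7 and EXPA18 stood at -0.06 and 0.11. Of the root hair genes, EXPA7 lay between 6.78 and 7.25 in lincomycin and between 6.01 and 7.60 in control arrays. The part of cell-type shares in the other results was not tested.

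Of 6 histone and cell cycle genes 1 rose and 2 fell. HIS1-3, a linker histone induced by water deficit, had 10.06, 10.01 and 10.38 in lincomycin and 8.25, 9.32 and 9.24 in control arrays (difference 1.21, SE 0.24; 0.75 without lincomycin replicate 3 and control replicate 1). HTB2, a histone H2B gene, had 8.60, 8.62 and 9.44 in lincomycin and 9.39, 10.24 and 9.98 in control arrays, so its groups overlap (difference -0.98, adjusted p = 0.0349). It was not called without any 1 of control replicates 2 and 3 and lincomycin replicates 1 and 2 (adjusted p = 0.0996 to 0.133), and its difference was -1.50 without lincomycin replicate 3 and control replicate 1. CYCJ18, a cyclin gene, fell by 0.48 (adjusted p = 0.0176; 0.0648 and 0.0617 without control replicate 2 or lincomycin replicate 1). Of 5 reference genes 0 were called by limma and 1 had an unadjusted p under 0.05, with GAPC2 lowest at -0.42 (adjusted p = 0.0673, but 0.0143 and -0.56 without lincomycin replicate 3). Shifting arrays to 1 median moved the median of all genes by under 0.1, to -0.02.

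Outside the lists, 1428 genes carry a symbol, of which 101 rose and 102 fell. The 15 that changed most in each direction are named here, chosen after their values were seen. Several that fell act in the chloroplast. CaS, the calcium sensor of the thylakoid, had 7.84, 7.90 and 8.68 in lincomycin and 10.60, 10.69 and 10.73 in control arrays (difference -2.54, SE 0.19, adjusted p = 4.56e-06). CCB3, which helps attach a heme to the cytochrome b6f complex, had 6.51, 6.78 and 6.86 in lincomycin and 9.19, 9.18 and 9.17 in control arrays (difference -2.46, SE 0.15). LrgB (AT1G32080), a transporter of the chloroplast envelope that serves photorespiration, fell by 2.28 (SE 0.19), and FIB, a fibrillin of plastoglobules, by 1.504 (SE 0.14). PIFI, which acts with the NDH complex, fell by 2.09 (SE 0.18). THIC of thiamine synthesis fell by 1.74 (SE 0.18), VTC4 of ascorbate synthesis by 1.39 (SE 0.13) and the ATP sulfurylase gene APS3 by 1.76 (SE 0.11). DJ1F (-2.33), AGL87 (-2.14), ECS1 (-1.97), Fes1B (-1.73), BZIP34 (-1.66), BGLU47 (-1.45) and the actin gene ACT11 (-1.43) complete the set.

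Those that rose had smaller changes and other roles. The chromatin remodeller gene chr31 had 6.82, 6.67 and 6.42 in lincomycin and 5.12, 4.68 and 4.72 in control arrays (difference 1.80, SE 0.18, adjusted p = 4.28e-05). The subtilase gene SBT3.12 rose by 1.54 (SE 0.16), the kinase gene WNK9 by 1.36 (SE 0.22), OASA2 of the cysteine synthase family by 1.35 (SE 0.17) and the beta-glucosidase gene BGLU45 by 1.31 (SE 0.19). HSA32, a heat stress protein, rose by 1.23 (SE 0.20), FDH, mitochondrial formate dehydrogenase, by 1.13 (SE 0.16) and the vacuolar protease gene ALPHA-VPE by 1.302 (SE 0.21). ARPN (1.22) and SIS (1.06) rose in every setting tried. BGLU19 was called at 1.57 (adjusted p = 0.0331), but its lincomycin replicate 3 (4.79) was within 0.15 units of a control (4.66). The calls of BGLU19, XIJ (1.21), AGL78 (1.14), OCT4 (1.22) and LPR1 (1.12) each ended when some single array was left out. Those arrays were every array but lincomycin replicate 3 for BGLU19 (adjusted p = 0.061 to 0.132), control replicates 2 and 3 and lincomycin replicates 1 and 2 for XIJ (0.0939 to 0.14) and AGL78 (0.124 to 0.186), lincomycin replicates 1 and 2 for OCT4 (0.0569 and 0.0516), and control replicate 2 for LPR1 (0.051). Without both arrays that stand apart XIJ stood at 1.93 (adjusted p = 0.000156) and AGL78 at 1.73 (adjusted p = 0.00381).

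Some genes next to each other in the RefSeq order were called in the same direction. Among 16343 pairs of adjacent tested genes, both genes fell in 104, both rose in 117 and they moved in opposite directions in 170. Of all genes 7.19% were called lower and 7.15% higher, so some such pairs and runs arise without any tie between neighbours. Whether neighbours shared a direction more often than that was not tested. There were 16 runs of at least 3 neighbours called in 1 direction, 7 of falls and 9 of rises, and the longest held 4 genes. The run with the largest changes was AT4G22485 (-4.13, SE 0.27), AT4G22490 (-3.57, SE 0.30), AT4G22505 (-3.23, SE 0.19) and AT4G22513 (-5.03), on chromosome 4. AT4G22513 had 2.05, 2.28 and 2.53 in lincomycin and 6.14, 8.06 and 7.75 in control arrays. GrxC5, AT4G28740 (-0.49, SE 0.14) and PSAE-1 form another run of falls on the same chromosome, and HSA32, AT4G21323 (0.93, SE 0.27) and SBT3.12 a run of rises. The middle genes of these runs were weak: AT4G28740 was not called without control replicate 2 or 3 or lincomycin replicate 1 or 2 (adjusted p = 0.0778 to 0.131), and AT4G21323 without any array but control replicate 3 (adjusted p = 0.0622 to 0.135). These runs were chosen after their values were seen, and neighbours of similar sequence may share probe signal.

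The same agent gave another response in gun1-101, and the test of the difference between the genotypes' responses called 1153 genes (6.97%). Among the genes called in Col-0 it called 407 of the 1190 that fell and 192 of the 1184 that rose. Without control replicate 1 of Col-0 it called 3876 genes in all, without lincomycin replicate 3 of Col-0 2986, and without any 1 other array between 379 and 704. Genes that fell in Col-0 had a median difference of -0.88 there and -0.27 in gun1-101, and 397 of them were also called lower in gun1-101. Genes that rose had medians of 0.72 in Col-0 and 0.25 in gun1-101, where 366 were also called higher. The genes were chosen by their Col-0 values, so some of this gap follows from the choice. Of the 15 genes that fell most, the responses differed in 9, and of the 15 that rose most in 12.

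NdhU shows the widest contrast of a named photosynthesis gene, with -4.16 (SE 0.20) in Col-0 and 0.06 (SE 0.20) in gun1-101 (adjusted p of the difference = 1.08e-05). All 4 antenna genes, all 4 Calvin cycle genes, 5 of 6 photosystem genes and 6 of 7 tetrapyrrole genes differed in response. LHB1B2 stood at -4.36 in Col-0 and -0.50 in gun1-101, and PRK at -2.82 in Col-0 and -1.10 in gun1-101. In AT2G34620 the values were -5.67 in Col-0 and -0.63 in gun1-101. Levels with lincomycin differed accordingly, and LHB1B2 averaged 7.34 ± 0.60 in Col-0 and 10.73 ± 0.31 in gun1-101 seedlings on lincomycin (SD, n = 3 each).

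Other strong falls of Col-0 had a response in gun1-101 that the test did not call different. AT1G13609 stood at -6.06 (SE 0.40) in Col-0 and -5.22 (SE 0.40) in gun1-101, and AT2G14247 at -5.53 (SE 0.31) in Col-0 and -4.70 (SE 0.31) in gun1-101 (adjusted p of the difference = 0.358 and 0.234). CSLA01 fell by 4.17 in Col-0 and by 4.69 in gun1-101 (adjusted p of the difference = 0.409). The iron genes had 0 of 4 responses called different by limma and 0 with an unadjusted p under 0.05, with medians of -3.51 in Col-0 and -2.56 in gun1-101. JMT (-2.55 in Col-0, -2.20 in gun1-101) and TBL26 (-3.03 in Col-0, -2.66 in gun1-101) had adjusted p-values of the difference of 0.498 and 0.504. A p above the threshold does not show that the genotypes respond alike.

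Among genes that rose, AT5G03495 stood at 4.099 in Col-0 and -0.23 in gun1-101, and AT4G22960 at 4.00 in Col-0 and 0.18 in gun1-101 (adjusted p of the difference = 0.000651 and 7.08e-06). The control levels of the genotypes differed too. AT5G03495 averaged 4.43 in Col-0 and 6.26 in gun1-101 controls, and AT4G22960 averaged 4.58 and 5.07. For AT2G21640 the control means were 6.64 in Col-0 and 8.91 in gun1-101, and the lincomycin means 9.47 and 9.17. AT1G17960 stood at 4.29 in Col-0 and 2.03 in gun1-101 (adjusted p = 0.01). COR15B had opposite signs, at -1.70 (SE 0.35) in Col-0 and 2.30 (SE 0.35) in gun1-101 (adjusted p of the difference = 0.00107). The trichome gene TRY stood at -2.91 in Col-0 and 0.17 in gun1-101 (adjusted p of the difference = 0.00303). The responses of 14 of the 41 plastid-encoded photosynthesis genes and 8 of the other 22 plastid-encoded genes were called different, beside 6.97% of all genes. The list medians were -0.22 and -0.16 in Col-0, and -0.80 and -0.67 in gun1-101. Of the 4 called plastid-encoded genes 3 had a smaller fall in Col-0 that passed this test. ndhJ stood at -0.83 in Col-0 and -2.60 in gun1-101, psbM at -0.57 in Col-0 and -2.10 in gun1-101, and psaJ at -0.58 in Col-0 and -1.65 in gun1-101 (adjusted p of the difference = 0.00144, 0.00231 and 0.0256). psbL stood at -0.66 in Col-0 and -1.27 in gun1-101, a difference that was not called (adjusted p = 0.104).

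**Figure D4:**
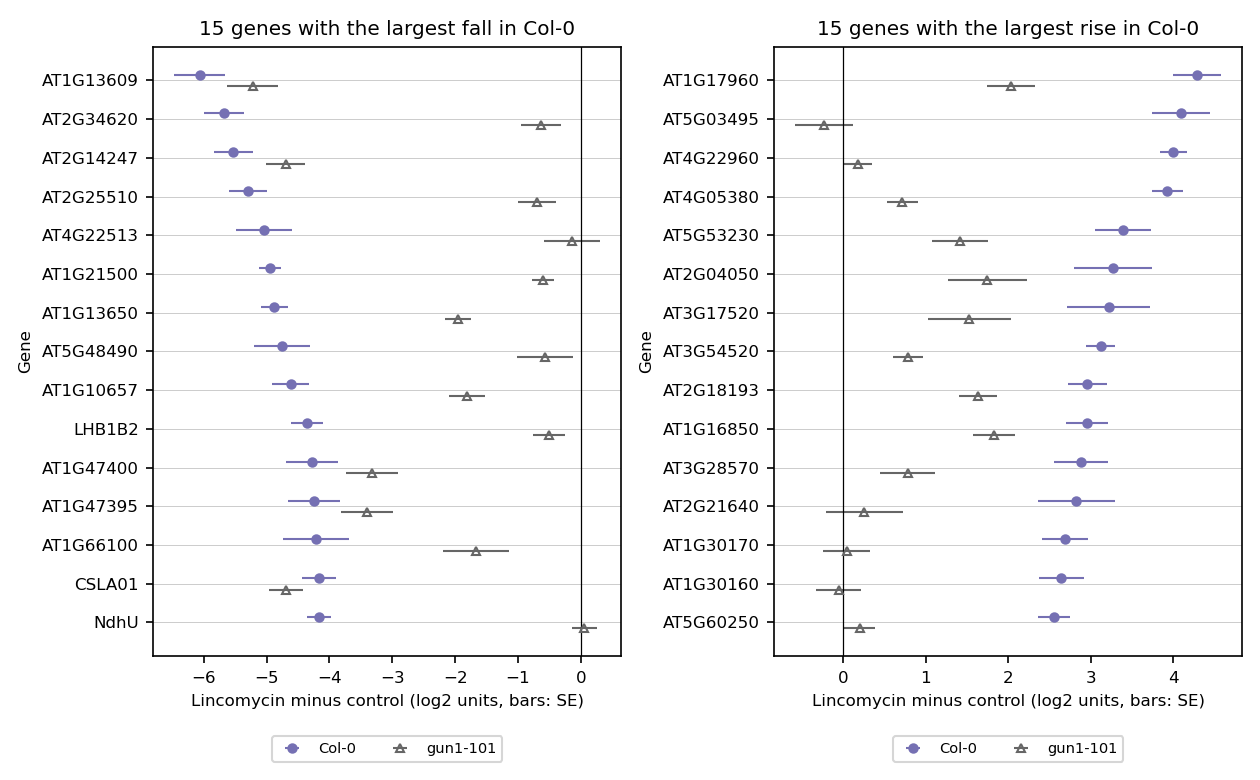
Lincomycin minus control difference (horizontal axis, log2 units, bars are SE) of the 15 genes that fell most and the 15 that rose most in Col-0. Filled circles are Col-0 and open triangles gun1-101. The triangle lies nearer to 0 than the circle for each gene shown except CSLA01, and those of AT1G13609, AT2G14247 and CSLA01 lie at -5.22, -4.70 and -4.69.

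**Figure D5:**
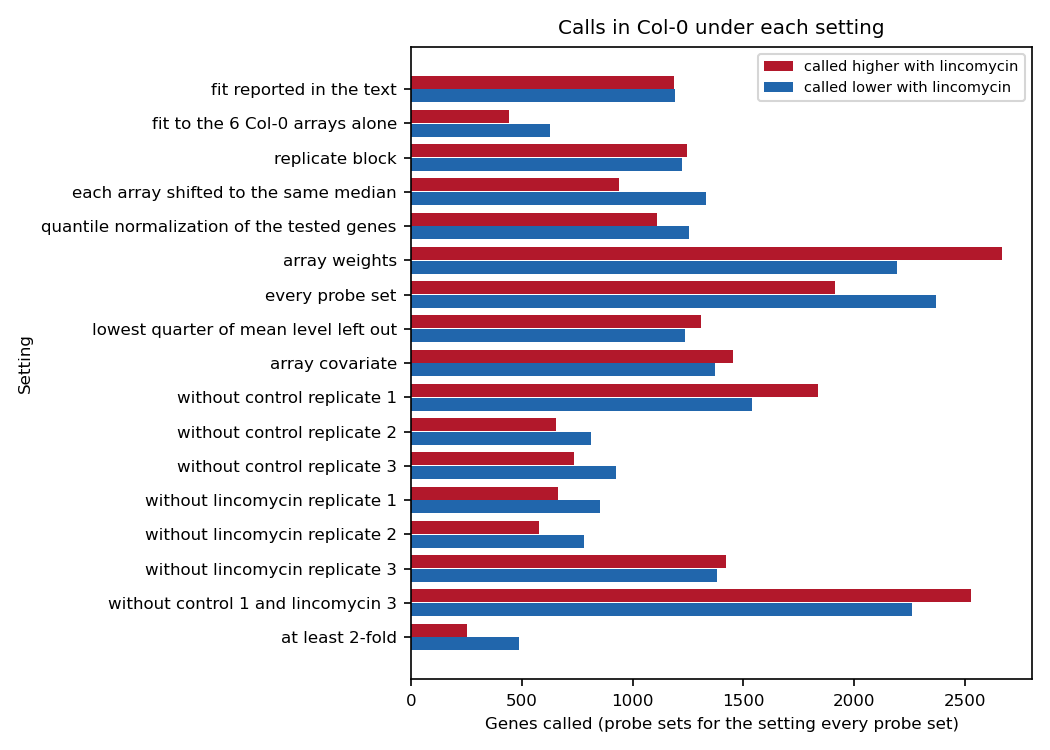
Number of genes called higher (red) and lower (blue) in Col-0 (horizontal axis) under each setting (vertical axis). The reported fit calls 1184 and 1190, the fit without control replicate 1 and lincomycin replicate 3 calls 2526 and 2261, and the fit to the 6 Col-0 arrays alone 441 and 626.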

How the data were processed

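Whole-seedling RNA of 12 samples, 3 in each of 4 groups, was hybridised to Affymetrix arrays. The deposited log2 levels were computed by RMA with version 1.3 of Affymetrix Expression Console, as the submitters' processing notes state. RMA equalises array distributions, so a shift shared by most transcripts would be lost. Array design and background settings: not given in the sources used here. Of 38408 probe sets, the platform annotation gave 16722 a single gene, 759 several and 20927 none. Names came from a RefSeq table of assembly TAIR10.1 (16574 matched, 148 kept their own name), and the probe set with the highest mean over 12 arrays stood for each of 146 genes with several. This left 16550 genes, with no filter on low values.

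With limma 3.58.1 in R 4.3.3 (lmFit, eBayes), 4 group means were estimated from the 12 arrays, without a replicate block. All adjusted p-values are two-sided, by Benjamini-Hochberg over the 16550 genes, and genes under 0.05 were called. The fit had 8 residual degrees of freedom (prior SD 0.204 with 3.89 prior degrees of freedom, median residual SD 0.22), and the number of arrays limits the precision. SE are from this fit. The script was tested on simulated data. Tables were made with Python 3 and pandas.

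Members and gene lists were chosen with earlier results of these data known. The 38 lists were written by locus or by words in gene names, 37 had a measured member, 34 had at least 3, and the cytosolic ribosome list had none. The genes named are the 15 lowest and 15 highest called genes without overlap of the Col-0 groups, up to 4 called members of each list with the largest difference (or the largest difference where none was called) and the called plastid genes. The genes named from outside the lists, the neighbour runs, and PSBW, LPA19, CRR41, CRR42, CHLM, SIRB, CCS, GRXC1 and KIN2 were added after their values were seen, as were list members given as not called. Same-numbered Col-0 arrays deviated from their group means with correlations of 0.44, -0.30 and 0.39, so the numbers do not pair the samples. Promoter sequences and motifs were not analysed here.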

Additional observations from a re-analysis of the deposited data

Results flagged for a closer look

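For 87 of the 164 named genes the lincomycin response in Col-0 differed from that in gun1-101 by limma's test of the difference (adjusted p under 0.05), which is why they are listed here. Values are the Col-0 response minus the gun1-101 response, in log2 units, so a negative value means a lower response in Col-0. Such a value can also come from control levels that differ between the genotypes. Among the genes that fell most in Col-0 it was -5.04 for AT2G34620, -4.89 for AT4G22513, -4.60 for AT2G25510, -4.35 for AT1G21500, -4.22 for NdhU, -4.19 for AT5G48490, -3.86 for LHB1B2, -2.93 for AT1G13650 and -2.81 for AT1G10657. Among those that rose most it was 4.32 for AT5G03495, 3.82 for AT4G22960, 3.21 for AT4G05380, 2.70 for AT1G30160, 2.65 for AT1G30170, 2.57 for AT2G21640, 2.36 for AT5G60250, 2.34 for AT3G54520, 2.25 for AT1G17960, 2.10 for AT3G28570, 1.97 for AT5G53230 and 1.33 for AT2G18193.

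In photosynthesis and carbon fixation the difference was -3.57 for LHCB4.2, -1.50 for LHCB4.1, -0.88 for LHCB4.3, -2.89 for PSAE-1, -1.45 for PSBY, -1.77 for PSB27, -1.22 for PSAN, -1.26 for PSBW, -1.36 for ATPC1, -1.84 for NdhN and -1.11 for NdhL. It was -1.94 for AT1G52220, -1.10 for AT4G01150, -0.72 for TROL, -1.71 for PRK, -1.42 for AT1G56190, -0.99 for SBPASE, -0.79 for RCA, -1.19 for AT1G32470 and -0.74 for HPR. In pigment synthesis, plastid translation and redox genes it was -2.44 for PORB, -1.61 for HEME1, -1.46 for HEME2, -0.88 for CHLM, -1.23 for SIRB, -1.47 for Z-ISO, -1.51 for AT5G47190, -1.22 for AT1G29070, -1.71 for TAPX, -1.84 for TRXF2, -1.05 for AT3G11630 and 0.96 for GRXC1.

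For other lists it was -1.79 for AT5G09570, -1.38 for ATHSP22.0, -2.04 for ATSPS4F, 1.89 for APL3, 0.78 for GTR2, -1.54 for GH3.9, 0.71 for GH3.17, -0.82 for PR-1-LIKE, 2.81 for M17, -4.00 for COR15B, -1.90 for KIN2, -1.59 for STOMAGEN, -0.82 for AT4G28100 and -3.07 for TRY. The plastid-encoded genes had positive values, 1.76 for ndhJ, 1.80 for rps14, 1.53 for psbM and 1.07 for psaJ. Among genes outside the lists it was -3.06 for AGL87, -2.50 for PIFI, -1.96 for CCB3, -1.94 for CaS, -1.92 for Fes1B, -1.70 for LrgB, -1.46 for FIB, -1.03 for DJ1F, -0.81 for VTC4, -0.59 for APS3, 1.78 for chr31 and 1.50 for SBT3.12. In the neighbour runs it was -2.79 for AT4G22490, -2.47 for AT4G22485, -1.38 for AT4G22505 and -0.72 for AT4G28740.

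Probe sets with no listed gene, which no comparison above uses, also responded. In a fit to every probe set, 907 of these 20927 were called higher and 1263 lower in Col-0 (10.4%). Among the 13844 that come after the first probe set with a gene the counts were 803 higher and 1234 lower (14.7%). In their own fit 14.3% of the tested genes were called. The lowest difference of these 13844 was -7.58, below that of every tested gene. Among the 7083 that precede the first probe set with a gene the counts were 104 higher and 29 lower (1.88%). The median level of these 7083 was 5.07, 5.14 and 4.72 in the lincomycin arrays and 5.37, 4.50 and 4.50 in the control arrays.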

How the results depend on the processing

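In Col-0, 2374 genes were called. The fit to the 6 Col-0 arrays alone called 1067, array weights 4863, every probe set 4286 (of 38408), a 2-fold minimum 736, and dropping the 2 arrays that stand apart, lincomycin replicate 3 and control replicate 1, 4787. Leaving out 1 array gave 1356 to 3377. A replicate block (the shared numbers as a term) called 2468. The correlations of same-numbered arrays, given with the processing, cannot decide whether the numbers pair the samples. A shift to 1 median (2269), quantile normalization (2364), leaving out the lowest 25% of levels (2545) and an array covariate (2825) stayed within 1.5 times. The share of calls that were higher was 49.9%, and 41.3% with 6 arrays, 41.4% after the shift and 34.1% at 2-fold.

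For the difference between genotypes, with 1153 genes, array weights called 5536, the array covariate 527, a 2-fold minimum 763, leaving out both arrays 5378 and the replicate block 1368. Leaving out 1 array gave 379 to 3876. The cause was not tested for any of these. Of 164 named genes 157 were called. Of these, 115 kept the call under every setting that tested them, 42 lost it under at least 1, and 0 changed sign. The fit to 6 arrays ended 38 calls and the replicate block 4. Those ended by the fit to 6 arrays include AT5G47190, CLPP4, GrxC5, PYE, SIR, XTH20, UGT72E1, M17 and HIS1-3 (limma adjusted p = 0.0509 to 0.0695). Of 37 lists with a measured member, 16 kept their number of calls within 1.5 times under all settings. The promoter motifs were not run.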

Other observations

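Gene families recognised by a shared symbol gave a further view, chosen after the values were seen. Of 22 beta-glucosidase genes of the BGLU series, 5 rose and 2 fell (all genes: 7.15% and 7.19%), with a family median of 0.09. Of 17 IQD genes, which encode calmodulin-binding proteins, 3 fell, and of 14 SWEET sugar transporter genes 2 rose.

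Along chromosome 2, 2 runs of 3 neighbours rose by similar amounts. AT2G07825 stood at 0.68 (SE 0.20), AT2G07827 at 0.58 (SE 0.15) and AT2G07830 at 0.58 (SE 0.14), and in the other run AT2G07806 stood at 0.78 (SE 0.22), AT2G07738 at 0.73 (SE 0.21) and AT2G07795 at 0.90 (SE 0.20). Their responses in gun1-101 lay between -0.30 and 0.05. These runs too were chosen after their values were seen. Their probe sets may share signal with each other or with similar sequences elsewhere, which was not examined.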
